A study of Drosophila melanogaster with 4 samples.

Results

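The Hox genes of Drosophila melanogaster encode homeodomain transcription factors that give the segments along the head-to-tail axis their identity. They are labial (lab), proboscipedia (pb), Deformed (Dfd), Sex combs reduced (Scr), Antennapedia (Antp), Ultrabithorax (Ubx), abdominal A (abd-A) and Abdominal B (Abd-B), and all 8 were taken as members by name. Of the 17796 annotated genes, these 8 were followed through every cluster of transcription start sites whose strongest position lay on the same strand in the gene body or within 100 bp of an annotated start. They held 19 of the 32731 clusters called in control testes and 40 of the 57330 clusters called in the knockdown.

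Hox genes sit on chromosome arm 3R in the Antennapedia complex (lab to Antp) and the bithorax complex (Ubx to Abd-B). Outside their domains the Polycomb group proteins hold them silent, and the trithorax group proteins keep them active where they were switched on. In the fly gonad, abd-A and Abd-B are best known for specifying the somatic cells that surround the germline. The testis studied here holds the germline together with somatic cells, and the zinc finger protein Kmg (Kumgang) acts in spermatocytes, the germ cells that enter meiosis.

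Cap analysis of gene expression (CAGE) sequences the 5' ends of capped RNAs, so each read, called a tag, marks the start and strand of an RNA whatever the length of its gene. Control males carried bamGAL4 alone, a driver active in late spermatogonia, and the knockdown males carried bamGAL4/ KmgRNAi. Both groups were moved from 25 °C to 29 °C as eggs and early larvae after 3 days of crossing, and testes were taken from males aged 0 to 2 days, 150 pairs for an extraction. Each group had 2 libraries, which the deposited tables hold as 1 pooled value. No p-value was therefore computed, and the spread between libraries is not known for any difference below. Reads were 76 bp in control and 150 bp in the knockdown, and read length and genotype cannot be told apart. A change was called by size alone, at 4-fold on log2((knockdown + 1) / (control + 1)) in tags per 1000000 tags of the group (TPM), among genes or clusters with 1 TPM or more in either group. Below, "rose" and "fell" mean past that rule. Intervals are 95% intervals for counting error in tags only, except that of a share of clusters.

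The pooled control held 56519714 tags and the pooled knockdown 34975246. The target gene kmg went from 48.5 TPM to 12.7 TPM, 3.83-fold lower and just short of the rule. Over the 30103 clusters called in both groups the median log2 ratio was 0.76, and over all 12839 measured genes it was 0.67. Values called rescaled below have the shift of 0.76 removed. All 8 of the spermatocyte and spermatid markers were measured in both groups, with a median log2 ratio of 0.63; mia rose and dj fell. Their summed level was 5057 TPM in control against 3734 TPM in the knockdown, or 2079 and 3165 TPM without dj.

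Hox tags were more abundant in the knockdown in sum, but not for every gene. Protein-coding genes as long as the Hox genes (10.593 to 102.976 kb) had a median level of 11.5 TPM in control. abd-A exceeded it, and pb, Abd-B and Ubx did not reach it. lab was close to it, with a counting interval of 11.13 to 12.95 TPM. Antp exceeded it only with a start that is also that of lncRNA:CR43252, and stood at 5.04 TPM without that start. Summed over the 8 genes, the level was 68.5 TPM in control (3874 tags) against 270 TPM in the knockdown (9451 tags). lab, pb and Ubx rose. Antp, abd-A and Abd-B did not pass the rule, and Dfd and Scr had no cluster in either group. Thus 3 of 6 measured Hox genes rose and 0 fell, where 21.3% of all measured genes rose and 5.42% fell. By each gene's strongest cluster, 4 rose (Abd-B too) and 0 fell, where 24.5% of all genes rose and 7.91% fell. Among the protein-coding genes of Hox length, 29% rose and 2.55% fell. The median log2 ratio was 2.45 over the 6 measured Hox genes and 0.92 over the genes of that length.

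**Figure D1:**
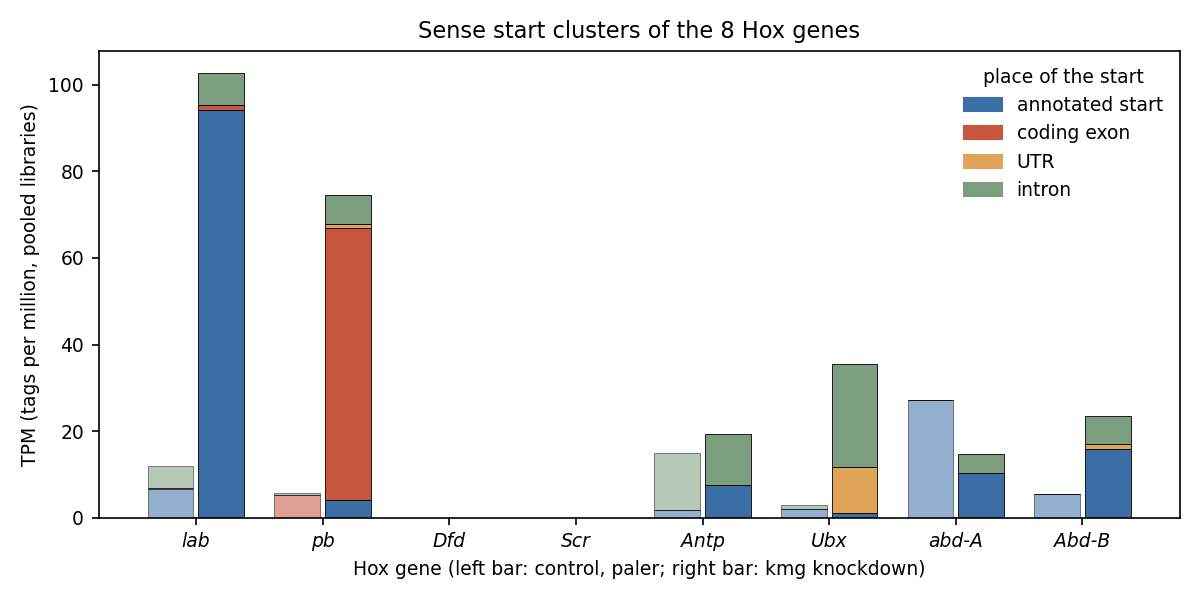
Level of each Hox gene (TPM) in the pooled control (left, paler bar) and pooled kmg knockdown (right bar), stacked by where the start clusters lie in the gene. The rise of lab lies at an annotated start, that of pb in coding exons and that of Ubx in introns and the 5' UTR, while abd-A is lower in the knockdown and Dfd and Scr are at 0.

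The order of the Hox genes by level differed between the groups. In control, abd-A led with 27.3 TPM, followed by Antp with 15.0 TPM and lab with 12.01 TPM. pb (5.70 TPM) and Abd-B (5.54 TPM) came next with overlapping counting intervals, and Ubx was lowest of those detected, at 2.95 TPM. In the knockdown, lab led with 103 TPM, then pb with 74.5 TPM, Ubx with 35.4 TPM, Abd-B with 23.6 TPM, Antp with 19.4 TPM and abd-A with 14.6 TPM. No neighbours in that order had overlapping counting intervals when all tags in Antp are counted. abd-A, the highest in control, was thus among the lowest of those detected in the knockdown. A start inside Antp belongs by annotation also to lncRNA:CR43252. Without it Antp stood at 5.04 TPM in control, close to pb and Abd-B. In the knockdown Antp then stood at 14.8 TPM, with 519 tags beside the 512 of abd-A. Some of these Antp tags also fall in CG46458, a gene on the same strand.

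Where the added tags started was not alike from gene to gene. Clusters at annotated starts went from 43.4 to 133 TPM over the Hox genes, coding exons from 5.59 to 63.9 TPM, introns from 19.6 to 60.5 TPM, and 5' UTRs from no called cluster to 12.8 TPM. Joining overlapping clusters of both groups gave 40 clusters, of which 34 were measured. Of these 13 rose and 0 fell, where 25.3% of clusters in genes rose and 3.92% fell. With 1 TPM added to both values, a cluster of low control level cannot fall by the rule. At annotated starts, 3 of 11 rose and 0 fell, where 7.45% of such clusters over all genes rose and 8.16% fell. In coding exons 3 of 4 rose, where 39.6% rose and 0.627% fell over all genes. In introns 6 of 17 rose, where 33.9% rose and 3% fell, and in 5' UTRs 1 of 2 rose, where 18.2% rose and 2.86% fell. Summed per gene, annotated starts rose in 2 Hox genes (lab and pb) and fell in 0, where 7.68% of all genes rose and 9.54% fell. Off annotated starts, 4 Hox genes rose (pb, Ubx, abd-A and Abd-B) and 0 fell, where 51.6% of all genes rose and 1.71% fell. After rescaling, 30 Hox clusters still reached 1 TPM, of which 7 rose and 1 fell (the abd-A-RD start), where 18.3% of clusters in genes rose and 7.6% fell.

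**Figure D2:**
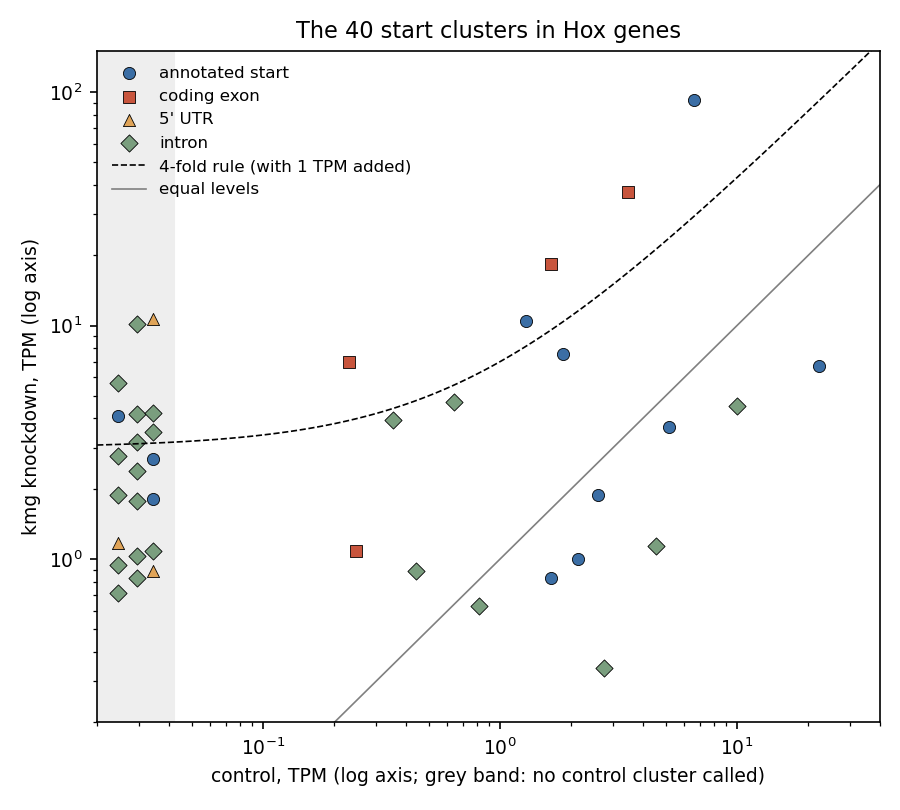
The 40 joined clusters of the Hox genes, control level against knockdown level in TPM on log axes, with colour and shape for the place in the gene. Points above the dashed line passed the 4-fold rule, and the 21 points in the grey band had no control cluster and are spread sideways only to keep them apart.

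Starts called in the knockdown alone were found in Hox genes as in other genes. Of the 40 knockdown clusters, 21 had no overlapping control cluster, 52.5% (Wilson interval 37.5 to 67.1), where 39% of all knockdown clusters in genes had none. The interval includes that 39%, and it takes clusters of the same gene as independent. These 21 held 24.3% of the knockdown's Hox tags. All 19 control clusters of Hox genes overlapped a knockdown cluster, where 5.55% of control clusters in genes did not. In the 19 joined clusters called in both groups, the strongest position moved by 10 bp or less in 12, including all 8 at annotated starts. In the knockdown, 10 of 11 clusters at the annotated starts of Hox genes had an interquantile width of 10 bp or less. Over all genes 25.3% of clusters at annotated starts did, without a match for tag number. The 10 narrow Hox clusters held 29 to 365 knockdown tags each, whereas the lab-RB start, with 3231, was 48 bp wide. The part of tag number in these widths was not tested. In coding exons 0 of 4 Hox clusters were that narrow in the knockdown, where 20.5% were over all genes. In control, the lab-RB start was 43 bp wide and the abd-A starts 28 and 39 bp, and the other called annotated starts were 10 bp wide or less. The abd-A starts were 4 and 3 bp wide in the knockdown, with fewer tags.

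The annotation lists 19 starts for the 8 genes. In control 8 of them had a cluster and in the knockdown 11 did; 3 were called in the knockdown alone and 8 in neither group. The silent ones included the only start of Dfd, both starts of Scr and the Antp start of 6 of its isoforms at position 6932840 of 3R.

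lab, the most anterior gene, acts in the head and in the copper cells of the midgut. It lies on the minus strand of 3R from 6661427 to 6678590. Its level was 12.01 TPM in control against 103 TPM in the knockdown, 8.55-fold higher (counting interval 7.87 to 9.29) and a log2 ratio of 2.99, or 2.24 rescaled. The rise came from 1 cluster, from 6663336 to 6663512, at the annotated start of the short isoform lab-RB. That cluster held 372 tags in control (6.58 TPM) and 3231 in the knockdown (92.4 TPM), 14.0-fold more (12.6 to 15.7). Its strongest position, 6663466, was the same in both groups. It lies 15.1 kb past the gene's 5' end inside the first intron of the long isoform lab-RA. The annotated protein of lab-RB has 213 residues, and that of lab-RA has 629.

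Other lab starts behaved differently from the one at lab-RB. Just 190 bp upstream of the lab-RB start, a cluster from 6663634 to 6663658 held 257 tags in control (4.55 TPM) and 40 in the knockdown (1.14 TPM), a ratio of 0.252 (0.176 to 0.352) that did not pass the rule. Neighbouring starts on one strand thus differed in direction, also after rescaling. The start of lab-RA had no control cluster and 63 knockdown tags (1.80 TPM), below the rule. A cluster in the first intron from 6673717 to 6673799 went from 0.637 to 4.72 TPM and did not pass the rule either. Without the lab-RB and lab-RA starts, lab stood at 5.43 TPM in control against 8.49 TPM in the knockdown.

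Across the genome, the genes closest to lab in their levels over the 2 groups were asRNA:CR44703 (11.7 and 105 TPM), eIF2D, a factor of translation initiation (12.3 and 98.9 TPM), and Taf6, a subunit of the general factor TFIID (12.7 and 104 TPM). Likeness was the Euclidean distance of log2(TPM + 1) over these 2 values, 0.0548, 0.0600 and 0.0734.

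pb specifies the adult mouthparts with Scr. It lies on the minus strand of 3R from 6707800 to 6742063, and it had the largest log2 ratio of the Hox genes, 3.50 (2.75 rescaled). The level was 5.70 TPM in control against 74.5 TPM in the knockdown, 13.1-fold (11.6 to 14.7). Starts in coding exons made up 5.34 TPM of the control level and 62.8 TPM of the knockdown level, 84.3% of the knockdown tags of pb. Its 3 coding-exon clusters rose, and all were called in control as well. The strongest, from 6739623 to 6739712 in exon 2, had 196 control tags (3.47 TPM) and 1309 knockdown tags (37.4 TPM), 10.8-fold (9.28 to 12.6).

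The other coding-exon starts of pb lie in exon 8. A cluster from 6710295 to 6710388 went from 1.65 to 18.4 TPM, 11.2-fold, and one from 6709851 to 6709979 from 13 tags (0.230 TPM) to 243 tags (6.95 TPM), 30.2-fold (17.3 to 57.6). The strongest knockdown positions fell in codons 138, 405 and 522 of the 782 codons of pb-RA, so that 82.5%, 48.3% and 33.4% of the coding sequence lay downstream. Within these clusters the strongest position moved by 15, 63 and 30 bp between the groups. The annotated start, shared by all 4 isoforms, had no control cluster and 144 knockdown tags (4.12 TPM), at least 77.6-fold more. It rose, but it held 5.53% of the gene's knockdown tags.

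Ubx sets the identity of the third thoracic segment, where the halteres form. It lies on the minus strand of 3R from 16656623 to 16734426 and went from 2.95 TPM to 35.4 TPM, 11.99-fold (10.2 to 14.2), with a log2 ratio of 3.20 (2.47 rescaled). Its annotated start and the rest of the gene differed in direction. At the annotated start, the strongest control cluster, there were 121 control tags (2.14 TPM) and 35 knockdown tags (1.00 TPM), a ratio of 0.467 (0.311 to 0.686) that did not pass the rule. Off it, the level was 0.814 TPM in control against 34.4 TPM in the knockdown, 42.3-fold (31.5 to 58.1). The annotated start thus held 72.5% of the control tags of Ubx and 2.82% of its knockdown tags.

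Of the 8 knockdown clusters of Ubx off its annotated start, 7 had no control cluster. The strongest lay in the 5' UTR from 16733487 to 16733608, with its main position 882 bp past the annotated start and 81 bp before the first codon. It had no control cluster and 374 knockdown tags (10.7 TPM), at least 201-fold more. In the first intron, a cluster from 16729689 to 16729761 had no control cluster and 354 knockdown tags (10.1 TPM), at least 191-fold. In the second intron, clusters from 16717670 to 16717764 and from 16716233 to 16716266 rose to 4.17 and 3.52 TPM. RNAs that start in the first intron would hold 34.4% of the coding sequence of Ubx-RA downstream, and those from the second intron 30.0%.

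**Figure D3:**
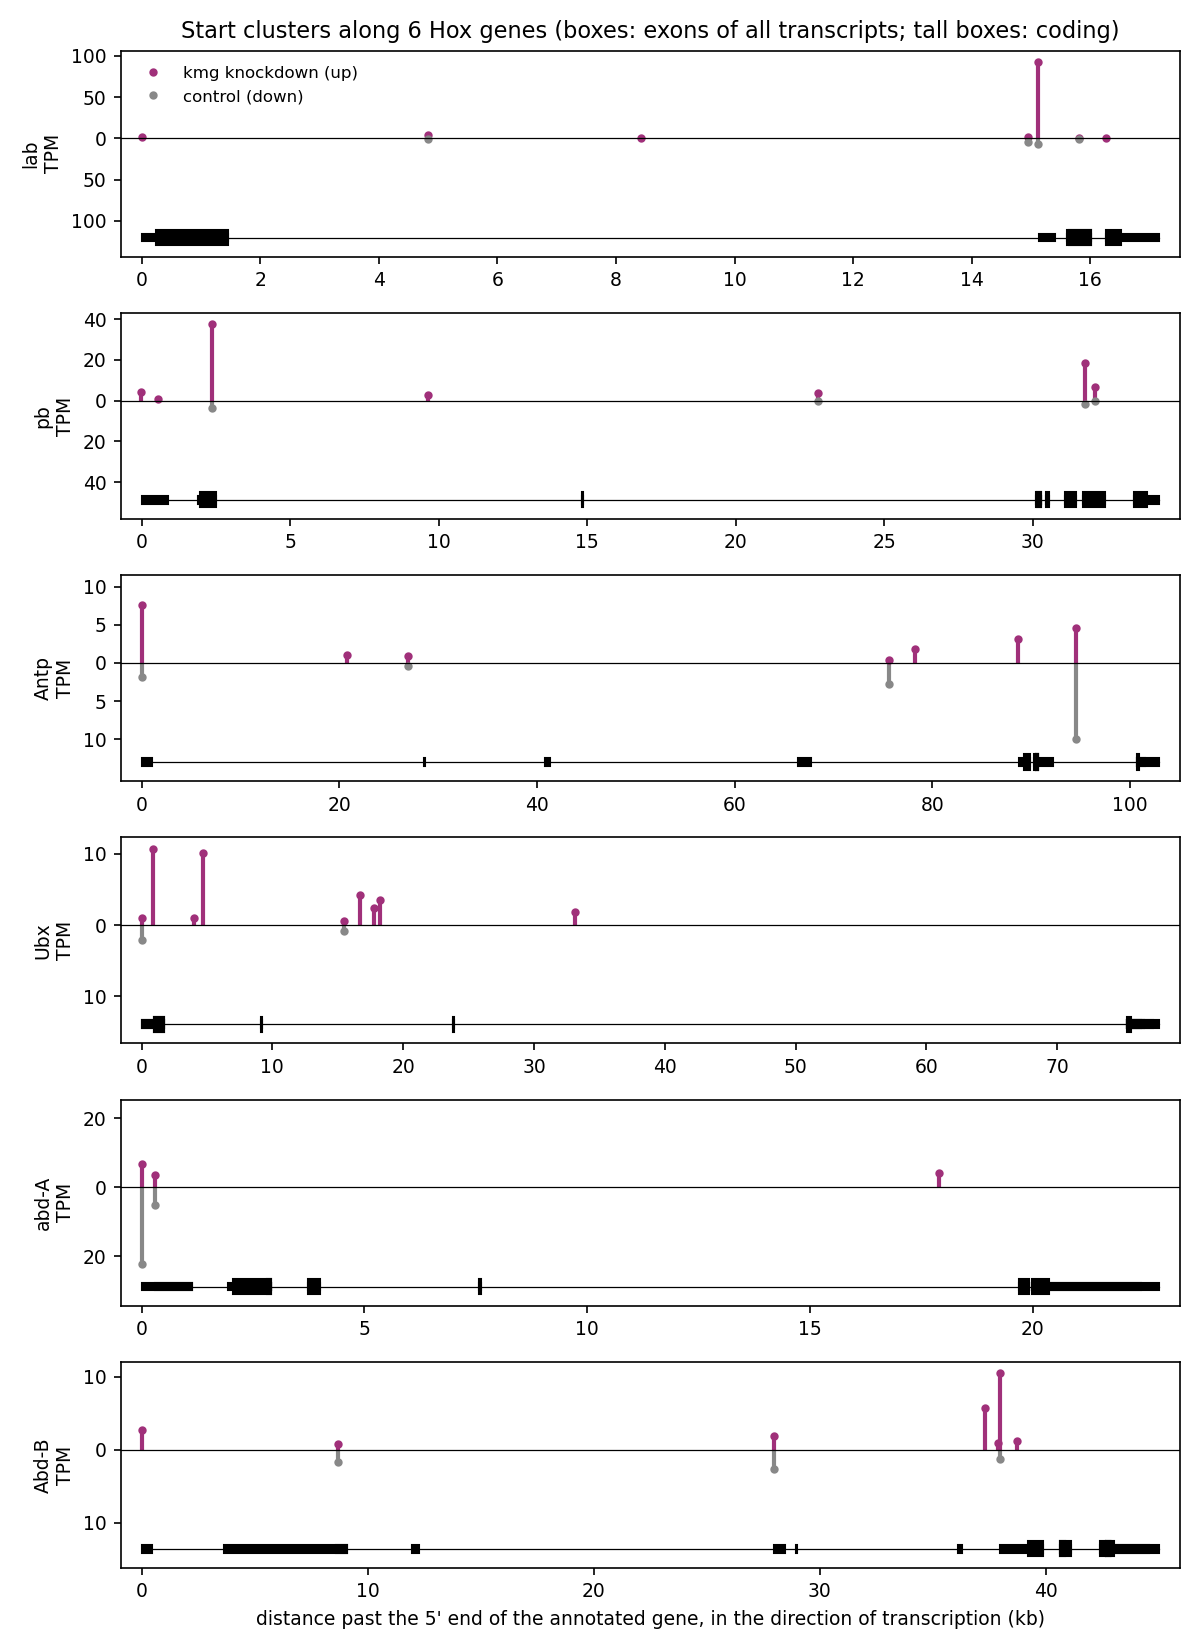
Start clusters along the 6 Hox genes with any cluster, with the knockdown level (TPM) drawn upwards and the control level downwards at the distance (kb) past the gene's 5' end; boxes are exons of all transcripts and tall boxes are coding. Each gene has its own level axis. The tall knockdown lines of lab and pb stand inside the gene and those of Ubx in its 5' UTR and first intron. The tallest lines of abd-A stand at its 5' end.

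abd-A, which patterns the anterior abdomen and the gonad's somatic precursors, was the most abundant Hox gene in control and among the least abundant of those detected in the knockdown. It lies on the minus strand of 3R from 16807214 to 16830049. Its level was 27.3 TPM in control against 14.6 TPM in the knockdown, a ratio of 0.536 (0.484 to 0.593). The log2 ratio of -0.86, or -1.55 rescaled, did not pass the rule in either scaling. The start of abd-A-RD, from 16830040 to 16830099, held 1250 control tags (22.1 TPM) and 235 knockdown tags (6.72 TPM), a ratio of 0.304 (0.263 to 0.350). It did not pass the rule, but its rescaled log2 ratio of -2.22 did. The rescaling removes the median shift of clusters in all places, whereas the median of clusters at annotated starts was -0.02 before it. The start of abd-A-RA and abd-A-RC, from 16829722 to 16829754, was at 5.18 and 3.69 TPM.

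One abd-A start rose while its promoters were lower. A cluster in the third intron of abd-A-RB, from 16812166 to 16812190, had no control cluster and 148 knockdown tags (4.23 TPM), at least 79.7-fold more, with 33.7% of the coding sequence of abd-A-RB downstream. It held 28.9% of the gene's knockdown tags. The annotated start of abd-A-RB itself had no cluster in either group.

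Abd-B, the most posterior gene, gives the last abdominal segments and the genitalia their identity and has several promoters. It lies on the minus strand of 3R from 16927212 to 16972236. Its level was 5.54 TPM in control against 23.6 TPM in the knockdown, 4.26-fold (3.74 to 4.87), and the log2 ratio of 1.91 (1.19 rescaled) fell just short of the rule. At the start of Abd-B-RB and Abd-B-RH, from 16934242 to 16934245, 73 control tags (1.29 TPM) stood against 365 knockdown tags (10.4 TPM), 8.08-fold (6.27 to 10.5), and this cluster rose. Those isoforms encode the long protein of 493 residues. A cluster from 16934851 to 16934929, 665 bp upstream of that start, had no control cluster and rose to 198 tags (5.66 TPM), at least 107-fold.

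The starts of the short Abd-B isoforms, which encode 270 to 323 residues, did not pass the rule. The start of Abd-B-RD, RF, RG and RI, the strongest in control, was at 2.60 TPM in control against 1.89 TPM in the knockdown. The start of Abd-B-RC was at 1.65 and 0.829 TPM. The start of Abd-B-RE had no control cluster and 94 knockdown tags (2.69 TPM). The starts of Abd-B-RA and Abd-B-RJ had no cluster in either group. The short isoforms thus had no common direction. The Abd-B-RD and Abd-B-RC starts were lower in the knockdown and that of Abd-B-RE was higher, as was the long-isoform start. For the Abd-B-RD start the ratio was 0.726 (0.534 to 0.976). Rescaling lowers the knockdown values and leaves these directions. The cluster of Abd-B-RC, 80 bp past its annotated start, was the one farthest inside the 100 bp window, and a knockdown cluster 106 bp upstream of the Abd-B-RB start (0.944 TPM) was the closest one outside it.

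Antp, which directs leg and thorax development, is the longest of the 8 genes, on the minus strand of 3R from 6896253 to 6999228. Its level was 15.0 TPM in control against 19.4 TPM in the knockdown, a ratio of 1.29 (1.16 to 1.43); the log2 ratio was 0.34, and it was -0.37 rescaled, so even its direction depends on the scaling. The highest control cluster, from 6904645 to 6904724 in an intron, is also the annotated start of lncRNA:CR43252 on the same strand and cannot be told apart from it. It was at 10.0 TPM in control against 4.52 TPM in the knockdown. Without that cluster Antp stood at 5.04 and 14.8 TPM, a log2 ratio of 1.39 (0.69 rescaled), still below the rule. By annotation it also lies in CG46458, a gene on the same strand. So do the intronic clusters that begin at 6910537, 6920957 and 6923590, which stay in these values.

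Within Antp the starts differed in direction as well. The most distal annotated start, position 6999228, shared by 5 isoforms, held 104 control tags (1.84 TPM) and 265 knockdown tags (7.58 TPM), 4.12-fold (3.27 to 5.22) but below the rule at a log2 ratio of 1.59. An intronic cluster from 6910537 to 6910540 had no control cluster and 111 knockdown tags (3.17 TPM) and rose, the closest to the rule of those that did, at a log2 ratio of 2.06. Another, from 6923590 to 6923637, went from 156 tags (2.76 TPM) to 12 tags (0.343 TPM), a ratio of 0.124 (0.0629 to 0.223), below the rule at a log2 ratio of -1.49.

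Dfd, which patterns the mandibular and maxillary segments, and Scr, which patterns the labium and first thoracic segment, had no sense cluster. Dfd lies on the plus strand of 3R from 6791836 to 6802428 and Scr on the minus strand from 6823120 to 6849981. Of the 1788 protein-coding genes of Hox length, 88 (4.92%) had no cluster. Single positions were listed only from 50 tags, 0.885 TPM in control against 1.43 TPM in the knockdown, so weaker starts of Dfd and Scr may be missing from the tables.

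Upstream of each Hox gene, the nearest cluster outside it on the same strand was listed in the knockdown alone. It lay 111 bp from lab (1.40 TPM in the knockdown), 434 bp from pb (8.01 TPM), 2403 bp from Scr (5.29 TPM), 2836 bp from Ubx (2.63 TPM), 4072 bp from Abd-B (3.29 TPM), 6787 bp from Dfd (4.15 TPM), 13436 bp from Antp (2.49 TPM) and 54076 bp from abd-A (10.8 TPM). Being outside the window of 100 bp, these are not counted in the gene levels. Over the genome, 47.2% of all knockdown clusters lacked a control partner.

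The genes around and upstream of the Hox genes gave a mixed picture. Of the other homeobox genes of the Antennapedia complex, which act in the early embryo, 3 were measured. Of these zen and zen2 rose and 0 fell, where 21.3% of all measured genes rose and 5.42% fell. zen had 4 control tags (0.0708 TPM) and 1117 knockdown tags (31.9 TPM), a ratio of 451 (176 to 1659), and 30.6 TPM of this lay at its annotated start. zen2 had no control cluster and 10.4 TPM in the knockdown, none of it at its annotated start. The pair-rule gene ftz was at 2.62 and 5.98 TPM without passing, and bcd had no cluster in either group. The Hox cofactors exd (6.19 and 4.60 TPM) and hth (13.1 and 40.5 TPM) did not pass the rule, and tsh had no cluster.

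Among the Polycomb group genes, 3 of 19 rose and 0 fell, and the median over the list was 1.01 on the log2 scale. They were ph-d (1.01 to 10.8 TPM), Psc (2.64 to 40.1 TPM) and Scm (11.1 to 52.1 TPM), all encoding subunits of or partners to the complex PRC1. Over all clusters Pc, whose protein binds methylated histone H3, was at 11.4 and 13.1 TPM. E(z), the methyltransferase that makes the mark, was at 6.30 and 22.3 TPM, and neither passed the rule. At their annotated starts both were lower in the knockdown, Pc at 11.02 and 8.15 TPM and E(z) at 4.71 and 1.80 TPM, again without passing. In the trithorax group 3 of 11 rose and 0 fell, with a median of 1.12. They were ash1 (14.0 to 124 TPM) and ash2 (4.41 to 54.6 TPM), which encode a histone methyltransferase and a subunit of such complexes, and mor (5.18 to 84.1 TPM), which encodes a subunit of the Brahma remodeler. trx, over all its clusters, was at 5.79 and 20.9 TPM and did not pass. Both shares are near the 21.3% of all measured genes that rose. At annotated starts alone, 2 of the 19 Polycomb group genes rose (ph-d and Psc) and 0 fell. Of the 11 trithorax group genes ash2 rose there and trx fell, from 5.66 to 0.543 TPM. Among all genes measured at annotated starts, 7.68% rose and 9.54% fell, and these few calls are not far from those shares.

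The annotation holds 36 noncoding genes within the complexes. Of these, 28 had no tags in either group, among them mir-10, mir-iab-4 and mir-iab-8, while 7 were measured, 5 rose and 0 fell, where 21.3% of all measured genes rose and 5.42% fell. The largest was lncRNA:iab8, which spans the region between abd-A and Abd-B and rose from 3.95 to 63.6 TPM, 16.1-fold (14.0 to 18.6). It had no cluster at its annotated start. Its level includes the clusters of MSAmiP, a gene on the same strand with no control cluster and 25.3 TPM in the knockdown. lncRNA:bxd, which lies upstream of Ubx, was at 191 and 391 TPM and did not pass. lncRNA:CR45901, on the strand opposite Scr, rose from 1.19 to 12.04 TPM. lncRNA:CR33938, lncRNA:CR44931 and lncRNA:CR45900 had no control cluster and rose to 5.92, 4.17 and 3.12 TPM. At annotated starts 3 noncoding genes were measured, of which 2 rose and 0 fell, where 7.68% of all genes rose and 9.54% fell. lncRNA:CR44931, lncRNA:CR45900 and lncRNA:bxd had no cluster there.

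Because the testes are bulk tissue, fewer cells of a type and less RNA per cell cannot be told apart, and marker lists of other cell types moved between the groups. Against all measured genes, 21.3% rising and 5.42% falling around a median of 0.67, muscle markers were lower, from 1262 to 341 TPM summed over 8 genes, and 1 of 8 fell (Act87E), the median log2 ratio being -1.27. Of 6 measured accessory gland and ejaculatory bulb markers 4 fell, and the sum went from 164 to 59.6 TPM, with a median of -3.47, Ebp and EbpII at 0 in both groups and Acp26Aa at 0 in the knockdown. Of the 7 measured neuron markers 5 rose and 1 fell, with a sum of 172 and 213 TPM and a median of 3.11, elav at 0 in control and VAChT at 0 in both. At annotated starts 2 neuron markers were measured, of which Gad1 rose and nSyb fell, and elav, brp and Syt1 had no cluster there. Cyst cell markers had a median of -0.18; 1 of 7 rose (so), and their sum was 90.5 and 185 TPM, or 71.0 and 64.7 TPM without so. Hub markers had a median of -0.23, 1 of 5 rose (CadN), and the sum was 199 and 188 TPM. Hemocyte markers summed to 136 and 117 TPM (of 5 measured 1 rose and 2 fell, median -0.84, NimC1 at 0 in both), and fat body markers to 289 and 142 TPM (of 4 measured 1 fell, median 0.46, Yp1 at 0 in both and Lsp2 at 0 in control). Early germline markers summed to 95.7 and 170 TPM, with a median of 1.17, 2 of 7 measured rising (bam and otu) and ovo at 0 in both. At annotated starts alone, 7.68% of all measured genes rose and 9.54% fell. There bam fell, from 3.79 TPM to 0, and 0 of 6 early germline markers rose. Of 4 hub markers 0 rose and Fas3 fell, from 82.9 to 5.58 TPM, and CadN had no cluster. Of 6 accessory gland and ejaculatory bulb markers 5 fell, of 8 muscle markers 1 and of 5 hemocyte markers 2. Of 4 fat body markers 1 rose and 1 fell, and of 7 cyst cell markers 0 did either. The part of these cell types in the Hox levels was not tested.

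Across the whole length of both complexes, starts were more numerous in the knockdown, inside and outside the Hox genes. The Antennapedia complex from lab to Antp (338 kb) held 29 control and 89 knockdown clusters, at 41.8 and 667 TPM in sum. The bithorax complex from Ubx to Abd-B (316 kb) held 23 and 65 clusters, at 263 and 747 TPM. Of the 74 measured joined clusters in the Antennapedia complex 35 rose, and of the 59 in the bithorax complex 27 rose, where 29.3% of clusters over the genome did. That share covers all places, among them annotated starts, where 7.45% rose, and it is not matched to the mix of places in the complexes. On the strand opposite the Hox genes 10 of 18 measured clusters rose and 0 fell, where 35.7% of clusters opposite protein-coding genes rose and 2.41% fell. Summed per gene, the opposite strand rose for 6 Hox genes of 7 with such a cluster, where it rose for 50.5% of protein-coding genes and fell for 1.66%. Without rescaling, no joined cluster fell in either complex, where 3.21% did over the genome. With 1 TPM added to both values, a cluster of low control level cannot fall by the rule, however few knockdown tags it has. The Antp cluster from 6923590 to 6923637, with a ratio of 0.124, had a log2 ratio of -1.49. Clusters outside the Hox genes went from 5.54 to 370 TPM in the Antennapedia complex and from 226 to 627 TPM in the bithorax complex.

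**Figure D4:**
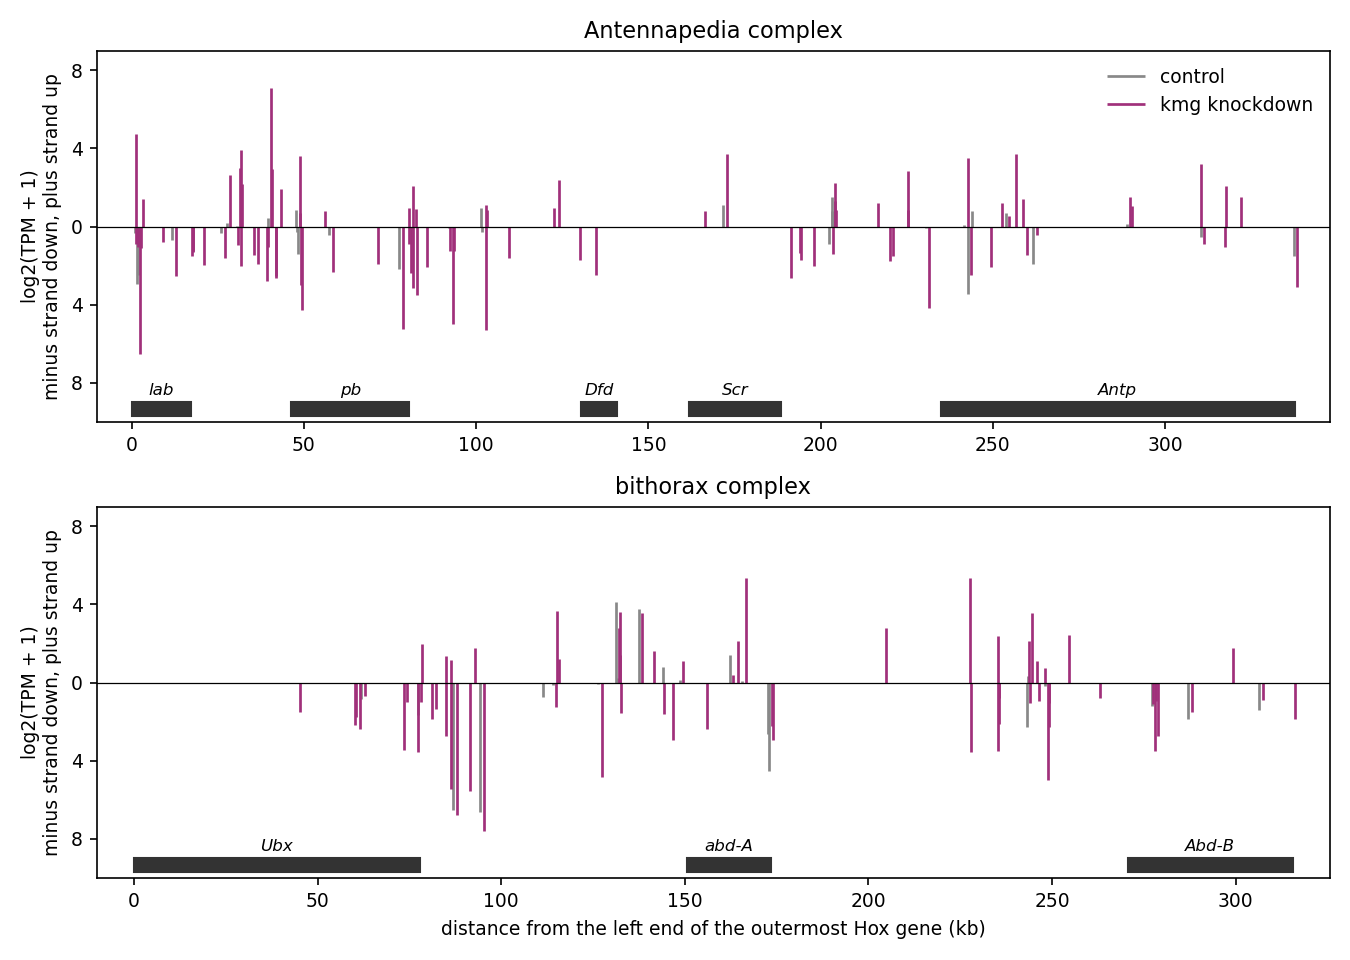
Start clusters along both Hox complexes, as log2(TPM + 1) on the plus strand (up) and minus strand (down), with control and knockdown lines side by side against the distance (kb) from the left end of the outermost Hox gene. Bars below mark the 8 Hox genes; knockdown lines outnumber control lines in both complexes, and the tallest control lines stand just upstream of Ubx.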

How the data were processed

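CAGE libraries of testis RNA from control and kmg knockdown males were compared. The submitters' processing notes name bedtools, STAR 2.7.11b, Trim Galore 0.6.6 and the builds BDGP6 and dm6; how positions were joined was not given in the sources used here. Per the file headers the deposited levels are scaled tags, yet all were whole numbers with a different total per group. They were taken as raw tag counts and scaled here to TPM, tags per 1000000 tags of a group. The number of start positions per cluster and of tags is deposited as a count. Another measure is the interquantile width, which the authors deposited in bp, between the 0.1 and 0.9 quantiles of a cluster's tags. The consensus table deposited by the authors, with counts over both groups, was used only to check for tags beyond the called clusters.

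Each table held 1 pooled value per group, so no test and no SD was possible. Overlapping clusters of both groups on a strand were joined and placed by the strongest position of the group with the higher level: at an annotated start within 100 bp, otherwise in an untranslated region, coding exon or intron of Ensembl release 115 gene models, which have dm6 coordinates. Coordinates are 1-based. A gene's level was the sum over its clusters; a cluster in overlapping genes on the same strand was counted for each. Genes or clusters of at least 1 TPM in either group were measured, with a pseudocount of 1 TPM, a scale that understates changes of low values. Intervals are Wilson for shares and exact binomial (Clopper-Pearson) for ratios of counts. A fold against no control cluster was set against a floor of 3 tags over the pooled libraries, or the tags of the consensus cluster beyond both called clusters where these were more; it is given only where a consensus cluster exists, since its count includes unlisted tags. The rescaled values divide the knockdown by the median ratio of clusters called in both groups. The calculation was tested on simulated data. Python 3.11.15, numpy 2.4.6, pandas 2.3.3 and scipy 1.17.1 were used.

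The members, gene lists and markers were chosen with earlier results of these data known. Genes named were all 8 Hox genes, each with its 3 highest knockdown clusters and highest control cluster, fixed lists of neighbours, cofactors and regulators, and the 3 genes nearest to lab in level; further clusters and list members were named after their values were seen. Alternatives were other pseudocounts, thresholds, filters, start windows and overlaps, the rescaling, and parts of a gene alone. No sequence is printed, as no genome sequence was used here.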

Additional observations from a re-analysis of the deposited data

Results flagged for a closer look

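Starts on the strand opposite the Hox genes are in no Hox gene level above, though 1 is in the level given for lncRNA:CR45901. By the 4-fold rule they were more abundant in the knockdown than in control for 6 of the 8 genes. Of protein-coding genes with such clusters, 50.5% passed it upwards. Opposite abd-A the level was 1.66 TPM in control against 44.1 TPM in the knockdown, mostly from 1 intronic cluster from 16822637 to 16822747 on 3R with 3 control tags and 1413 knockdown tags (40.4 TPM). Opposite Antp it was 1.56 and 42.2 TPM, spread over 11 clusters. Opposite lab there was no control cluster and 27.2 TPM in the knockdown, with 25.5 TPM from a cluster facing a coding exon from 6662093 to 6662143, at least 481-fold more. Opposite pb the values were 0.796 and 13.7 TPM, opposite Scr 1.19 and 12.8 TPM, of which 12.04 TPM was lncRNA:CR45901, and opposite Dfd no control cluster and 4.63 TPM. Abd-B had 2.40 TPM of such tags in the knockdown, below the rule, and Ubx had no such cluster.

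Over all 8 genes the opposite strand went from 5.20 to 147 TPM, 28.3-fold (counting interval 25.1 to 31.9). Dfd and Scr, which had no cluster on their own strand, thus had clusters on the other. The difference has no replicate check, and the part of read length in it cannot be told apart from genotype.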

How the results depend on the processing

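Of 79 values recomputed under alternative settings, 64 kept their side of the rule or, for counts and shares, moved by less than the limits set for them. Antp, never past the rule, was among them but changed sign, from 0.34 to -0.37 rescaled, -0.99 by its strongest cluster and -0.15 off annotated starts. Under other pseudocounts or the rescaling, lab, pb and Ubx stayed past the rule. By its strongest cluster alone, Abd-B passed at a log2 ratio of 2.32. At annotated starts alone, Ubx was at -0.65. Off annotated starts alone, abd-A was at 2.39, Abd-B passed at 3.13 and lab was at 0.56. These follow from which clusters enter the sum. The count of Hox genes that rose lay between 2 and 4, and 0 fell under any setting run.

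Counts of Hox clusters that rose depended on the settings. A 2-fold threshold gave 6 at annotated starts, 14 in introns and 2 in 5' UTRs, and a pseudocount of 0.5 TPM gave 5 at annotated starts and 12 in introns. A pseudocount of 3 TPM gave 1 and 1, the rescaling 1 and 2, and a filter of 5 TPM 2 in introns. Among the reported counts 3 at annotated starts and 6 in introns rose. No paired analysis was possible because each group has 1 pooled value. The knockdown had fewer tags than control, so weak starts are harder to see there. Single positions under 50 tags are not listed in either group.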

Other observations

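In the knockdown, the strongest starts of both complexes lay outside the Hox genes; in control this held for the bithorax complex, while the 5 strongest of the Antennapedia complex lay in Hox genes. Upstream of Ubx, within lncRNA:bxd, the start of CG31275 was at 99.0 TPM in control against 193 TPM in the knockdown, and an unannotated start from 16743924 to 16744034 on the minus strand of 3R was at 91.6 and 108 TPM. Neither passed the 4-fold rule. Between and beside them, clusters from 16747543 to 16747663 and from 16742475 to 16742633 had no control cluster and stood at 45.7 and 42.9 TPM in the knockdown, at least 861-fold and 808-fold more. Starts strong in both groups and starts called in the knockdown alone thus lay within a few kb on the same strand.

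In the Antennapedia complex the largest knockdown start lay between lab and pb on the plus strand, from 6701304 to 6701453, outside any gene on that strand, with 21 control tags (0.372 TPM) and 4805 knockdown tags (137 TPM). It exceeded the level of every Hox gene in the knockdown. The cuticle protein gene Ccp84Ad, also between lab and pb, had no control cluster and 20.1 TPM in the knockdown. In the bithorax complex, a plus-strand start from 16883719 to 16883931, between abd-A and Abd-B, had no control cluster and 39.1 TPM in the knockdown. Glut3, a glucose transporter gene between Ubx and abd-A, was at 16.6 and 19.0 TPM, within the 4-fold limits. Its annotated start was lower in the knockdown, 16.4 against 5.92 TPM, without passing the rule. A start inside the gene, from 16788522 to 16788582, rose from 0.159 to 11.4 TPM.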
